A study of Caenorhabditis elegans with 2 samples.

Results

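The superoxide dismutase, catalase and peroxiredoxin genes of Caenorhabditis elegans were followed in L4 larvae raised with or without the grape seed polyphenol pOPC7. These genes were taken by name from the array's annotation, and a probe set was used only where that annotation gave it a single gene symbol. Of the 10 genes listed (sod-1 to sod-5, ctl-1 to ctl-3, prdx-2 and prdx-3), 8 had such a probe set, out of 17118 genes on the array. The catalase genes ctl-1 and ctl-3 had none, because their probe set carries both symbols. Whole hermaphrodites of the wild type N2 were grown from L1 to L4 for 48 hours on OP50 bacteria. The exposed group received plates with 2 µg/mL pOPC7, a proanthocyanidin trimer gallate from Vitis vinifera seeds, and the control group received plain NGM plates. Each group was 1 array, and the number of worms or plates behind it is not given in the sources used here. With 1 array in each group no difference below has a replicate check, and no p-value was computed.

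Superoxide leaks from respiration and is also made by oxidases. Superoxide dismutases turn it into hydrogen peroxide, which catalases and peroxiredoxins then remove. The worm keeps separate enzymes for the cytosol, the mitochondrial matrix, the peroxisome and the space outside cells. Some of them, sod-3 in particular, are switched on by the FOXO factor DAF-16 when insulin signalling is low, and sod-3 is widely used as its reporter.

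The enzyme genes measured on these arrays had nearly the same value with and without pOPC7. Values are the deposited RMA values on a log2 scale, and a gene counted as measured when its mean over both arrays was at least 6. By that limit 5 of the 8 genes were measured (sod-1, sod-2, ctl-2, prdx-2 and prdx-3), and sod-3, sod-4 and sod-5 lay below it. The differences of the 5 measured genes, always pOPC7 minus control, ran from -0.10 to 0.07, and the farthest from 0 was a 1.07-fold difference. No member passed 1.5-fold in either direction. Over all 8059 measured genes 0.732% were higher by 1.5-fold and 0.211% were lower (59 and 17 genes, or 41 and 30 after centring on the median), so a count of 0 among 5 genes does not stand apart from this background. Closeness of this size was common among single genes. Of the 3364 genes with a level of 8 or more, 48.1% differed by no more than sod-1, the farthest of the 5. Whether it is unusual for all 5 to lie this close was not tested. In whole worms a lower value can come from fewer cells of a type or from less RNA per cell, which cannot be told apart.

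**Figure D1:**
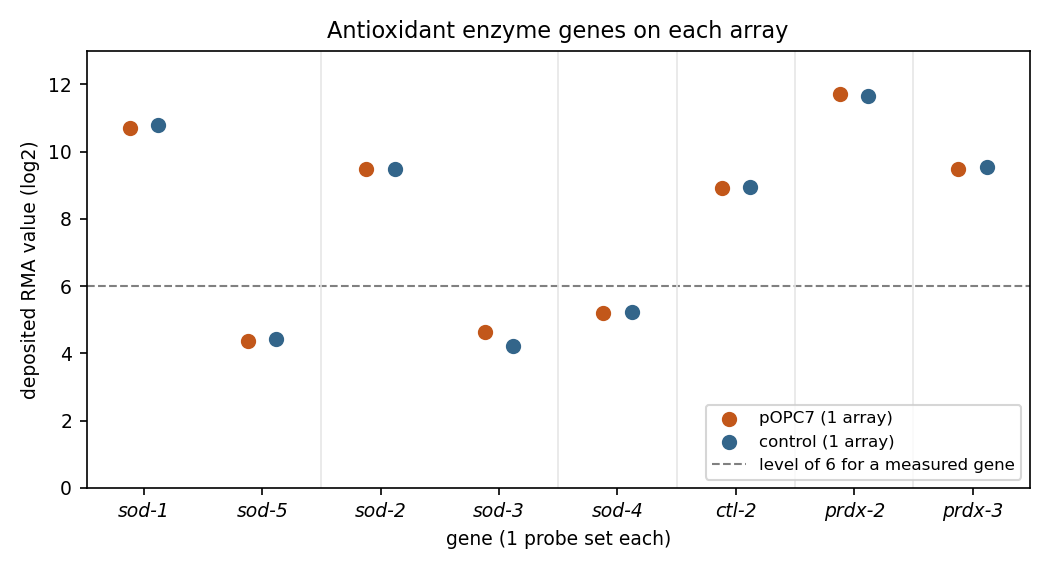
Deposited RMA value (log2, vertical axis) of the 8 genes with a probe set of their own, with pOPC7 left of control in each pair and 1 array per point. The points of a pair nearly coincide except for sod-3 (4.65 with pOPC7, 4.21 in the control), and sod-3, sod-4 and sod-5 lie below the dashed line at 6.

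The cytosol holds the copper/zinc enzymes SOD-1 and SOD-5. The main cytosolic enzyme gene, sod-1, had a value of 10.71 with pOPC7 and 10.80 in the control, a difference of -0.10 or a ratio of 0.935. This was the lowest of the measured members. It is an ordinary size for its level, as 46.2% of the 327 genes within 0.5 of that level lay at least as far from 0. The probe set of sod-1 ends in _s_at, a suffix for sets that match several transcripts, and RefSeq lists 2 transcripts for the gene. The minor cytosolic enzyme gene, sod-5, had 4.35 with pOPC7 and 4.43 in the control (-0.08), below the level at which a gene counted as measured.

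SOD-2 and SOD-3 are the manganese enzymes of the mitochondrial matrix. The gene of the constitutive enzyme, sod-2, had 9.48 with pOPC7 and 9.47 in the control. Its difference of 0.01 was the smallest of all members, and its sign is not settled, as it was below 0 under each of 3 other scalings and -0.03 after centring on the median difference of all measured genes. The inducible gene, sod-3, had 4.65 with pOPC7 and 4.21 in the control, a difference of 0.43 or 1.35-fold. This was the largest difference of the 8 genes, and it stood at a level where the arrays disagree more. The 1943 genes within 0.5 of its level had a median difference of 0.11 and an SD of 0.29, and 15.1% of them lay at least as far from 0. Of the 9059 genes below the measured limit 3.02% were higher by 1.5-fold and 0.662% were lower, and sod-3, sod-4 and sod-5 did not reach that fold. Its difference was 0.34 once a trend of the difference with level had been removed.

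SOD-4 is the copper/zinc enzyme that acts outside the cell, and RefSeq lists 2 proteins for its gene. The values of sod-4 were 5.20 with pOPC7 and 5.22 in the control, a difference of -0.03. Like sod-5 it lay below the measured limit, and 92.6% of the 1975 genes within 0.5 of its level lay at least as far from 0.

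**Figure D2:**
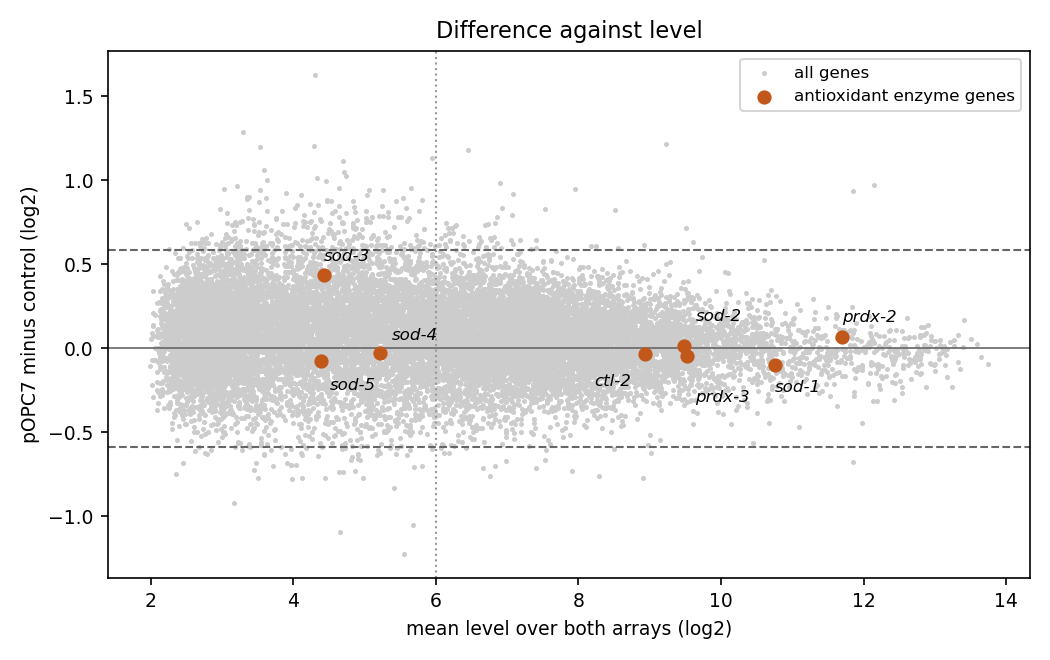
Difference (pOPC7 minus control, log2) against mean level over both arrays (log2) for all 17118 genes (grey) and the 8 antioxidant enzyme genes (orange). Dashed lines mark 1.5-fold and the dotted line the level of 6. The grey cloud is wider at low levels, where sod-3 (0.43) lies, and narrow where the 5 measured members lie between -0.10 and 0.07.

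Catalases break hydrogen peroxide into water and oxygen. The 3 catalase genes of the worm follow one another without a gene between them in the RefSeq annotation, in the order ctl-2, ctl-1, ctl-3. For ctl-2, the catalase of peroxisomes, the value was 8.91 with pOPC7 and 8.95 in the control, a difference of -0.04. Its probe set also ends in _s_at, so a part of its signal may come from the neighbouring catalase genes, which was not tested. The probe set that carries the symbols of both ctl-1, the cytosolic catalase, and ctl-3 had 9.16 with pOPC7 and 9.12 in the control (0.04). That value belongs to neither gene alone and was left out of every count. Both catalase probe sets thus lay within 0.04 of equal values, on opposite sides of 0.

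Peroxiredoxins reduce hydrogen peroxide through a reactive cysteine and are recharged by thioredoxin. The cytosolic prdx-2 had 11.73 with pOPC7 and 11.66 in the control. The difference of 0.07, or 1.05-fold, was the highest among the measured members, and 55.5% of the 173 genes within 0.5 of its level lay at least as far from 0. The mitochondrial prdx-3 had 9.49 with pOPC7 and 9.54 in the control (-0.05). RefSeq lists 3 transcripts for prdx-2 and 1 for prdx-3. In the cytosol, sod-1 (-0.10) and prdx-2 (0.07) thus lay on opposite sides of 0. The signs held under all 3 scalings (centring on the median, removing the trend with level, quantile normalization). Both differences were still smaller than the error of a probe set (SD 0.20, described below), so neither sign is settled.

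Taken as a group, 2 of the 5 measured members were above 0 and 3 below, with a median difference of -0.04. Under each of the 3 scalings sod-2 changed sides, which left 1 above and 4 below. Over all measured genes the median was 0.04 and 57.8% were above 0, while over the 769 genes with a level of 10 or more the median was -0.01 and 43.7% were above 0. All differences of the measured members were smaller than the error of a probe set. That error was taken from 816 genes at a level of 8 or more that have several measured probe sets, whose first and second sets disagreed as sets with an SD of 0.20 each would. Each member rests on 1 probe set, so differences smaller than this could not be told from 0 for any of them. Sets with a low probe set number, which no member has, were not left out of this estimate. Their median difference was -0.06, against 0.06 for the other measured sets. The SD of the differences of all 3364 genes at a level of 8 or more was 0.17. The values of different genes come from different probes and do not rank the enzymes by abundance.

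The other genes of peroxide removal were also close to equal. Of 13 other peroxidases 7 were measured and none passed 1.5-fold. Their median was 0.08, beside 0.04 over all measured genes. It was 0.04 under each of the 3 scalings, of which centring subtracts the 0.04 of all measured genes. The heme peroxidase gene skpo-1 (-0.30) and the glutathione peroxidase genes gpx-1 (0.20) and gpx-5 (0.09) differed most. The third peroxiredoxin gene, prdx-6, had probe sets at -0.10 and 0.17 that averaged 0.03, and the sign of this mean turned under 2 of 3 scalings. Of the 16 genes listed under thioredoxin and glutathione supply, not all of which supply either, 11 were measured. Of these 8 were above 0, beside 57.8% of all measured genes, and none passed 1.5-fold. Their median was 0.10, or 0.06 to 0.07 under the 3 scalings. The measured genes included the sestrin gene sesn-1 (0.30), the thioredoxin genes trx-3 (-0.25) and trx-4 (0.18), and gcs-1, of the first step of glutathione synthesis (0.10). The thioredoxin reductase genes trxr-1 (cytosolic, 0.15) and trxr-2 (mitochondrial, 0.09) lay below the measured limit. The probe sets of trxr-1 stood at -0.06 and 0.36, and trxr-2 differed by 0.01 once the trend with level was removed. All 7 genes listed under NADPH supply were measured, with a median of 0.10 (0.038 with the trend with level removed). They were led by gspd-1, glucose-6-phosphate dehydrogenase (0.18), tald-1 (0.14) and idh-2 (0.13). The list also holds genes whose enzymes do not make NADPH themselves, tald-1 and tkt-1.

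**Figure D3:**
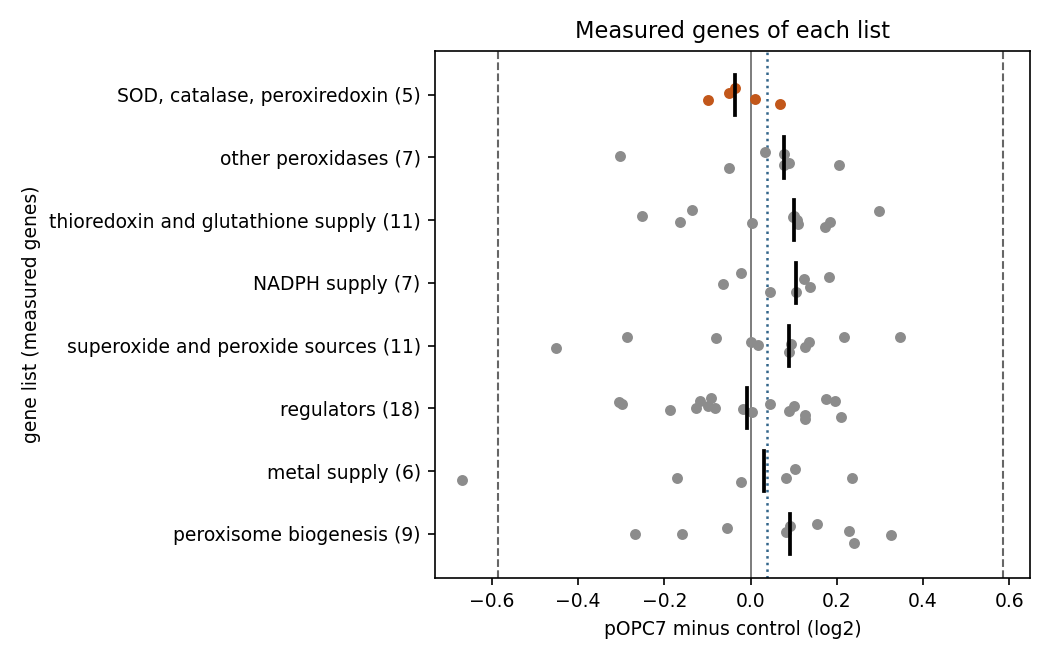
Difference (pOPC7 minus control, log2) of the measured genes of each list, 1 point per gene, with the number of genes in brackets. Black bars are list medians, the dotted line is the median of all measured genes (0.04) and dashed lines mark 1.5-fold. The antioxidant enzymes span -0.10 to 0.07, and the metal gene at -0.67 is the only point past 1.5-fold.

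Genes on the producing side ranged from -0.45 to 0.35. Of 17 listed sources of superoxide or peroxide 11 were measured and none passed 1.5-fold. Their median was 0.09, or 0.03 to 0.05 under the 3 scalings. Lowest were nuo-6 of respiratory complex I (-0.45) and the succinate dehydrogenase gene mev-1 (-0.29). The peroxisomal acyl-CoA oxidase gene acox-1.5 was highest (0.35). Among 12 peroxisome biogenesis genes, on which the compartment of CTL-2 depends, 9 were measured and none passed 1.5-fold. Their median was 0.09, or 0.05 to 0.07 under the 3 scalings. They ran from prx-11 (-0.27) to prx-3 (0.24) and prx-5 (0.33), the import receptor. Of 6 measured genes that handle metals, with a median of 0.03 that was below 0 under 1 of 3 scalings, 1 was lower by 1.5-fold, beside 0.211% of all measured genes. That was the ferritin gene ftn-1 (6.65 with pOPC7, 7.32 in the control, -0.67). The count was 0 at a mean level of at least 7, which ftn-1 misses, and without suffixed probe sets, of which its only set is one. The copper chaperone gene cuc-1 differed by -0.17 and the copper pump gene cua-1 by 0.24. The only probe set of cuc-1 is low-numbered, and such measured sets had a median difference of -0.06, against 0.06 for the others.

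Listed regulators of antioxidant genes had a median of -0.01 over 18 measured genes, 9 above 0, and none passed 1.5-fold. For daf-16 the mean was 8.42 with pOPC7 and 8.42 in the control, a difference of 0.00. This averaged 4 probe sets running from -0.41 to 0.24 and turned sign under all 3 scalings. The daf-16 difference was 0.23 without low-numbered probe sets and -0.41 without suffixed ones, so it is not settled. The insulin receptor gene daf-2 differed by 0.10 (probe sets from -0.08 to 0.40), the oxidative stress factor gene skn-1 by -0.08 (from -0.44 to 0.18), the heat shock factor gene hsf-1 by 0.21 (0.09 and 0.33) and hlh-30 by -0.31 (from -0.73 to 0.08). Probe sets of 1 regulator therefore differed by more than any measured antioxidant enzyme did between the arrays.

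As a check of the labelled stage and sex, sperm, yolk and male genes were looked at on both arrays. Of 11 sperm genes with a probe set 10 were measured, 5 above 0 and 4 below, with a median difference of 0.01. The largest differences were in fer-1 (-0.36), spe-4 (-0.30) and spe-15 (-0.22), all lower, while gsp-3 was highest at 0.17. The median of the sperm genes was -0.26 without suffixed or without low-numbered probe sets, settings that leave out some of these genes. All 5 yolk genes, which are chiefly adult genes, were measured, at levels between 10.03 and 12.29 and with differences of -0.39 for vit-1, -0.26 for vit-2 and 0.07 for vit-6. Of these yolk genes 3 were above 0 and 2 below. Their median of 0.03 was -0.26 under either of the same settings. Those settings leave out vit-4 and vit-5, so this median was the value of vit-2. None of 8 male genes was measured, their highest level being 5.56. With no array of males to set beside them, their low values do not settle the sex. The part of stage in the differences of the enzyme genes was not tested.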

How the data were processed

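The deposited table holds 22625 probe sets and 1 value for each of the 2 arrays. RMA (background subtraction, quantile normalization and median polish over a set's probes) was run by the authors, per the submitters' processing notes, which name neither its version nor an annotation. The deposited values, from 1.78 to 13.90, were read as log2 from their range. Column medians were 5.99 (pOPC7) and 5.94 (control). Of the probe sets, 20766 carried 1 gene symbol, 887 several and 972 none. The value of a gene is the mean over its own probe sets (17118 genes). Identifiers of 17072 genes matched RefSeq genes of WBcel235, used here for names, transcripts and neighbours. Arrays were compared as pOPC7 minus control, and their number limits the precision.

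The members and lists were chosen with earlier results of these data known. All members are named, and of each list the 3 measured genes farthest from 0, those past 1.5-fold, and 10 fixed regulators and enzymes. A gene that this rule names among the regulators is not reported here. With 2 arrays no gene could be called most alike in pattern. Settings tried instead were 10 planned and 1 added after seeing the data. Code was tested on simulated data (Python 3.11.15, pandas 2.3.3, numpy 2.4.6, statsmodels 0.14.6, matplotlib 3.10.9).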

Additional observations from a re-analysis of the deposited data

How the results depend on the processing

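No paired analysis was possible because each group is 1 array, and no replicate could be left out. Since each member has 1 probe set, only the 3 scalings could move its difference. All 24 such values stayed within the SD of a single probe set (0.22 over all measured levels) of those reported, and none passed 1.5-fold. Centring moves every gene by the same 0.04, so its values could not leave that bound. The sign of sod-2 turned under all 3 scalings. The number of members counted as measured was 8 with no limit on level and 3 without suffixed probe sets, which removes sod-1 and ctl-2. The members' median ran from -0.07 to 0.01, and sod-3 from 0.34 to 0.43.

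Over all measured genes the counts higher and lower by 1.5-fold were 120 and 31 at a mean level of at least 5, 20 and 9 at 7, 333 and 77 with no limit, and 34 and 35 with a loess trend on level removed. The lower count was 30 after centring, 30 after another quantile normalization and 28 without suffixed probe sets. The median of the regulators was -0.0929 without suffixed probe sets, 0.0616 with the median over probe sets and 0.0892 without low-numbered probe sets. That of the superoxide and peroxide sources was 0.00 without suffixed probe sets. The cause was not tested. The setting on probe set numbers was added after seeing that the low-numbered measured sets had a median difference of -0.06, against 0.06 for the others, and no member has a low-numbered set.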

Other observations

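Some dim genes of the same pathways differed by about as much as sod-3. They were picked after their values were seen and lay below the measured limit. The glutathione peroxidase gene gpx-3 had 4.96 with pOPC7 and 4.47 in the control (0.49), the dual oxidase gene duox-2 had 3.28 with pOPC7 and 2.84 in the control (0.44), and the manganese transporter gene smf-1 had 5.96 with pOPC7 and 5.59 in the control (0.37). The heme peroxidase gene skpo-2 lay on the other side, with 5.75 with pOPC7 and 6.14 in the control (-0.39). Genes below the limit had a median difference of 0.08 and an SD of 0.26, against 0.04 and 0.20 for measured genes.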
